A study of Rattus norvegicus with 90 samples.

Results

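Thioacetamide is a small sulfur compound that becomes toxic only after liver enzymes oxidise it, and the injury therefore starts in the hepatocytes around the central veins, where those enzymes are most abundant. In the liver, transcripts of detoxification and stress responses are known to change first, and transcripts that come with dying cells, incoming inflammatory cells, cell division and repair follow. A transcript that is unmoved at 8 h and high at 24 h belongs to the later phase by its time course alone, whatever its gene does.

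The liver transcripts described here were raised at 24 h after the high dose of thioacetamide without having passed a set limit at 8 h. There were 54 of them among the 40071 annotated rat transcripts measured. They were chosen by measured values. CPM stands for the estimated count of a transcript scaled to a total of 1000000 over all annotated transcripts of the same library, and L is the log2 ratio of (mean CPM + 1) after thioacetamide to (mean CPM + 1) after vehicle in the same organ at the same time, minus the median of that ratio over all transcripts with a vehicle level of at least 1 CPM. Membership required a liver L of at least 1.5 at 24 h and between -0.5 and 0.5 at 8 h after the high dose, a vehicle liver level of at least 0.5 CPM at 24 h, and a kidney L below 1 at 24 h after the high dose. No table used here pairs these Ensembl transcript identifiers with genes, so members are given by identifier, and which genes they come from, what those genes do and their sequences were not analysed here.

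The libraries came from male Sprague-Dawley rats that were 10 weeks old when bought and were given a jugular catheter before the experiment. The rats received one intraperitoneal injection of saline (vehicle, 3 ml/kg) or of thioacetamide at 25 mg/kg (low dose) or 100 mg/kg (high dose). Liver, kidney and heart were collected 8 h or 24 h later, all at the same time of day, and each of the 18 groups of one organ, dose and time held 5 libraries. Rats of the 8 h groups were injected in the morning and had no food afterwards, and rats of the 24 h groups were injected in the late afternoon and had food until their last 8 h, so the interval after injection, its hour and the feeding cannot be told apart in a comparison of 24 h with 8 h. Per the study's methods the 3 organs were taken from the same rats, but the labels tie no liver library to the kidney or heart of its rat, so comparisons between organs were fitted as if all libraries came from different rats. The labels call the libraries of a group separate samples without saying more, but per the study's methods each dose and time had 5 rats. The libraries of a group were therefore taken as coming from different rats, and p-values measure the spread between these libraries.

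The libraries held 13430000 to 34299100 estimated counts in annotated transcripts, with a median of 21741200. In the first vehicle liver library at 24 h (labelled MS-1), the counts were within 1 of those of a low dose liver library at 8 h (MS-9) for 99.96% of 15797 transcripts and for all 54 members. The next closest pair of liver libraries shared 3.82% of its transcripts at that tolerance. MS-1 was left out of every vehicle group at 24 h, which then held 4 libraries. Sets of 20 transcripts each, chosen as restricted to one organ by the vehicle means of these same libraries, were compared between libraries. The gap between the vehicle organs follows from that choice and cannot check their labels. The summed level of the liver set was 186482 to 306285 CPM in liver and at most 369.6 CPM in heart, and it reached 12611 CPM in one low dose kidney library at 24 h (MS-37) and 2325 CPM in one high dose kidney library at 24 h (MS-54). The summed level of the heart set was 4.01 to 40.1 CPM in 29 liver libraries and 335 CPM in one high dose liver library at 24 h (MS-91). All 20 transcripts of the heart set were detected in MS-91, and also in MS-4 (vehicle, 24 h) and MS-94 (low dose, 8 h). In every other liver library 8 to 14 of them were detected. The heart set also differed between the groups of liver libraries at 24 h, at 4.01, 5.55, 6.13 and 12.9 CPM after vehicle, 9.61 to 15.4 CPM after the low dose, and 18.7, 20.2, 30.7 and 40.1 CPM in the other 4 high dose livers. In the low dose livers at 8 h it was 10.9 to 37.03 CPM. Over the kidney libraries the heart set had a median of 29.4 CPM and was highest, at 278 CPM, in one low dose library at 24 h (MS-105). The kidney set summed to 37.7 to 58.6 CPM after vehicle, 68.4 to 159 CPM after the low dose and 63.5 to 89.02 CPM after the high dose in livers at 24 h.

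Transcripts that rose late were a small share of those that were high at 24 h. Of 15500 transcripts with at least 0.5 CPM in vehicle liver, 567 had a liver L of at least 1.5 at 24 h after the high dose. Of these 567 transcripts, 494 already had an L of at least 0.5 at 8 h, 10 had an L of -0.5 or lower at 8 h, and 63 lay between these limits, of which 9 were left out for a kidney L of 1 or more. The 54 members thus stood at the late end of a response that was mostly visible at 8 h.

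The limits cut through a continuum. L at 24 h had a median of 1.74 over the members and reached 5.26, with 42 of 54 below 2. The 3 members just inside the limit had values of 1.517, 1.507 and 1.502, and the 3 transcripts just outside it had values of 1.48, 1.48 and 1.48, the last 2 of which were identical in all columns of the rule. At 8 h after the high dose L was above 0 in 43 of 54 members, with a median of 0.23, and above 0.4 in 18. A description of the set as silent at 8 h would therefore go beyond the data: its members stayed under the limit of 0.5, and 28 of them lay between -0.25 and 0.25.

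Most members were transcripts of low level in untreated liver. Their vehicle liver level at 24 h had a median of 1.67 CPM, against 7.85 CPM over the 15500 transcripts, and 44 of 54 members were below 5 CPM. This level is the lower term of the ratio that chose the members, so the rule itself favours low values. The 494 transcripts that passed the same 24 h limit but were already up at 8 h had a median of 3.23 CPM. Only 5 members had 10 CPM or more. Their annotated length had a median of 1997 bases, close to the 2178 bases of the 15500.

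**Figure D1:**
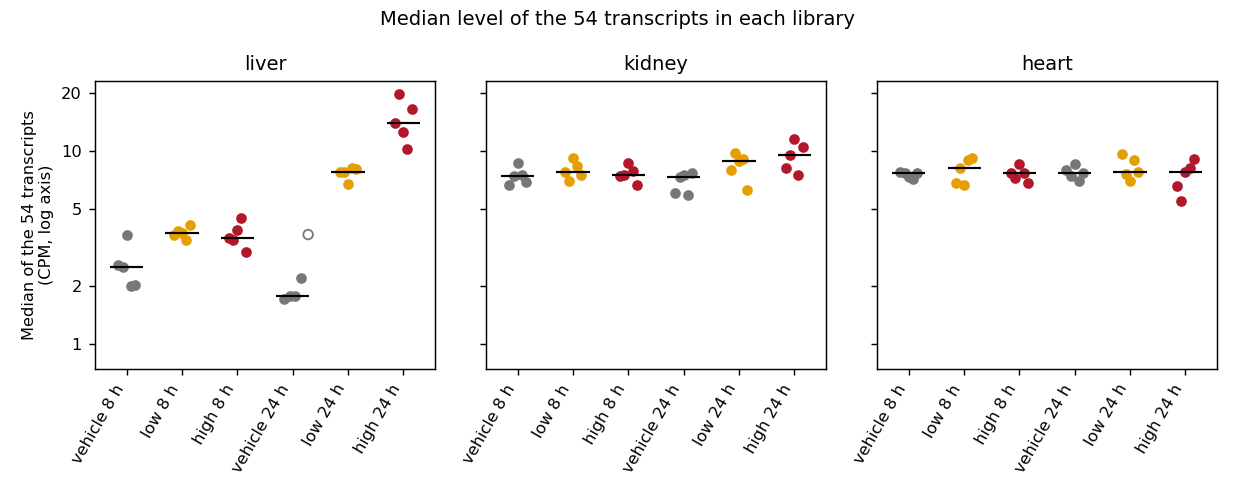
Median CPM (log axis) of the 54 transcripts in each library, by organ, dose and time, with 1 filled point per library, a line at the median of the group and an open circle for library MS-1, which was left out. The liver libraries at 24 h sit at 1.71 to 2.20 CPM after vehicle, 6.77 to 8.21 CPM after the low dose and 10.3 to 19.8 CPM after the high dose, whereas kidney and heart libraries stay between 5.53 and 11.6 CPM in every group.

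The median level of the 54 members in each liver library shows the pattern that the rule selected on. In vehicle livers at 8 h the 5 medians were 1.99, 2.02, 2.50, 2.55 and 3.67 CPM, and at 8 h after the high dose they were 2.99, 3.45, 3.53, 3.89 and 4.48 CPM. At 24 h they were 1.71, 1.76, 1.76 and 2.20 CPM after vehicle and 10.3, 12.6, 14.1, 16.5 and 19.8 CPM after the high dose. The groups overlapped at 8 h and were far apart at 24 h. The lowest of the high dose medians at 24 h belonged to MS-91, which was the lowest of the 5 libraries in 36 of 54 members, and the highest belonged to MS-6, which was the highest in 27. Without MS-91 the rule gave 60 transcripts, 51 of them shared with the 54, and 51 of the 54 kept an L of at least 1.5. The heart-restricted and kidney-restricted transcripts were higher in the same high dose livers than in vehicle livers, and their part in the members' levels was not tested.

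At 24 h the CPM values of liver transcripts shifted as a whole after thioacetamide. The 10 most abundant transcripts held 24.7% to 27.2% of the counts in vehicle livers at 24 h and 17.5% to 21.7% after the high dose. The median log2 ratio over all transcripts at 24 h was 0.68 for the high dose and 0.44 for the low dose. At 8 h it was 0.05 for the high dose and 0.25 for the low dose. L has this median subtracted, and the tests below use TMM scaling, an edgeR method that sets library scales by the bulk of transcripts.

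In the tests, a transcript was called at a Benjamini-Hochberg adjusted p at or under 0.01 and a change of at least 0.60 on the natural log scale (0.87 on the log2 scale), by edgeR's quasi-likelihood test over all transcripts with enough counts. In the contrast that chose the members, high dose against vehicle liver at 24 h, 46 of the 53 members with enough counts were called higher and 0 lower, where 13.2% of 17137 transcripts were called higher. On the TMM-scaled values the libraries of both groups did not overlap in 50 of 53 members, and in 23.6% of all tested transcripts. These counts follow from the selection. At 8 h after the high dose 0 of 53 members were called by edgeR (8 had an unadjusted p under 0.05 with a higher level), where 12.4% of all transcripts were called higher, and this too was fixed by the limits at 8 h.

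The low dose livers took no part in the selection. At 24 h after the low dose the members' medians were 6.77, 7.81, 7.81, 8.05 and 8.21 CPM, against 3.47, 3.69, 3.78, 3.87 and 4.15 CPM at 8 h after the same dose. All 5 libraries at 24 h were above all 5 libraries at 8 h. The summed heart set was not higher at 24 h in these livers (9.61 to 15.4 CPM against 10.9 to 37.03 CPM at 8 h), whereas the kidney set was 68.4 to 159 CPM against 47.96 to 89.2 CPM, and its part in the members' levels was not tested.

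The fit of the low dose livers at 24 h against those at 8 h, 5 against 5 libraries, asked whether the later rise recurred in livers that had not been used to find it. Of the 52 members with enough counts, 21 were called higher at 24 h and 0 lower, where 1.92% of 16792 transcripts were called higher. The log2 fold change was above 0 in 45 of 52 members, with a median of 0.92 against -0.03 over all transcripts tested. The 21 called members had log2 fold changes of 0.88 to 2.13, and without overlap between the groups stood 24 of 52 members, against 9.11% of all transcripts. MS-9, the low dose library at 8 h that equals MS-1, was among these libraries, and 22 members were called without it.

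**Figure D2:**
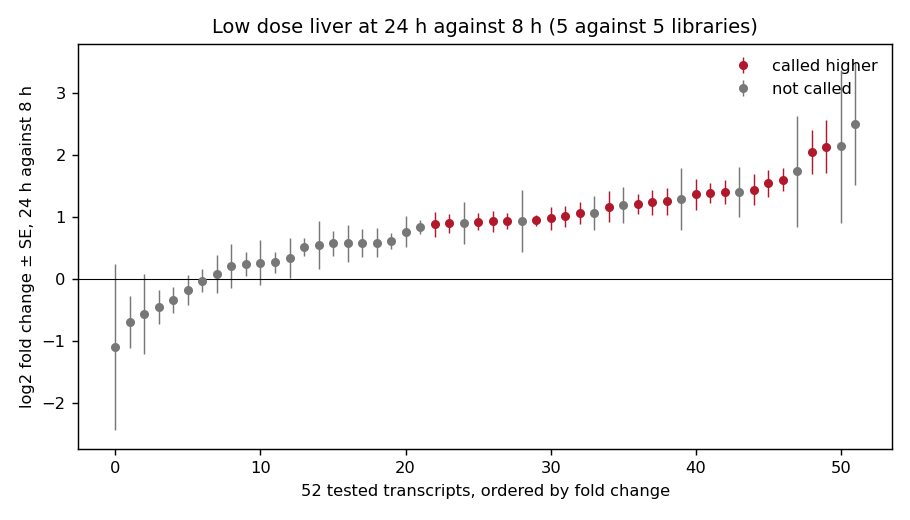
Log2 fold change (points) and standard error (bars) between low dose livers at 24 h and at 8 h for the 52 members with enough counts, in order of fold change, with the 21 called members in red. The fold changes run from -1.11 to 2.50 with 45 above 0, and the largest has one of the widest error bars.

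The clearest member in this comparison was ENSRNOT00000012101, singled out after the values were seen because it had the smallest adjusted p. Its CPM in low dose livers was 29.3, 33.3, 33.3, 34.2 and 34.6 at 8 h and 58.2, 68.8, 75.8, 76.8 and 78.97 at 24 h. In high dose livers it was 21.7, 24.2, 24.6, 25.6 and 27.7 at 8 h and 110, 125, 126, 132 and 138 at 24 h, and in vehicle livers it was 22.02 to 26.5 at 8 h and 19.4, 22.5, 24.8 and 25.0 at 24 h. The 24 h libraries of either dose were thus higher than every other liver library, and those of the high dose were higher than those of the low dose. Its log2 fold change at 24 h against 8 h after the low dose was 0.94 ± 0.09 (SE, n = 5 and 5, adjusted p = 0.00023, edgeR).

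A second such member was ENSRNOT00000067638, with a low dose CPM of 2.12, 2.38, 2.50, 2.93 and 3.33 at 8 h and 7.49, 7.61, 7.89, 10.5 and 11.9 at 24 h. After the high dose it was 2.65, 2.73, 2.83, 2.84 and 2.90 at 8 h and 12.03, 17.5, 19.3, 19.7 and 23.7 at 24 h. The groups at 8 h and 24 h did not overlap at either dose. Its log2 fold change after the low dose was 1.59 ± 0.18 (SE, adjusted p = 0.00054, edgeR).

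The transcripts that passed the same 24 h limit but were already up at 8 h are given for comparison. Of the 494 early transcripts, 493 had enough counts, and 42 of them (8.52%) were called higher and 47 lower at 24 h than at 8 h, with a median log2 fold change of 0.01. At 8 h after the low dose 239 of the 493 were called higher than vehicle. Among the members this was 1 of 52, ENSRNOT00000025651, where 5.78% of 16341 transcripts were called higher, and the members' median log2 fold change was 0.13. The low dose livers at 8 h took no part in choosing either set. They share the vehicle livers at 8 h with the selection, and the difference between both sets was not tested.

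That single member, ENSRNOT00000025651, had 4.39, 5.51, 7.69, 7.87 and 8.80 CPM at 8 h after the low dose against 1.93, 2.35, 2.75, 2.83 and 3.20 CPM in vehicle livers. The groups did not overlap, and the log2 fold change was 1.05 ± 0.23 (SE, adjusted p = 0.0047, edgeR). At 24 h after the low dose it stood at 4.60 to 7.28 CPM, so it was already as high at 8 h as at 24 h at this dose. At 8 h after the high dose it was at 2.57 to 4.79 CPM. It was no longer called without any 1 of the low dose libraries MS-9, MS-15 and MS-94 or the vehicle libraries MS-13 and MS-28, when 0 members were called.

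**Figure D3:**
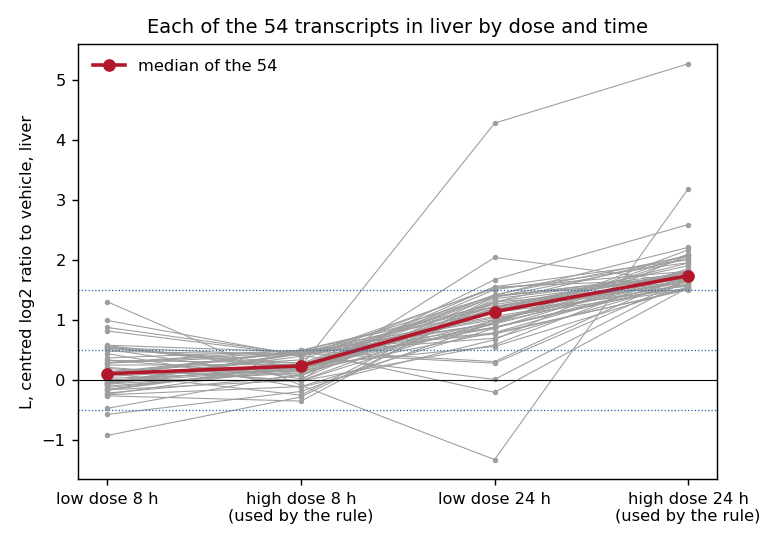
L, the centred log2 ratio to vehicle in liver, of each of the 54 transcripts (grey) at both doses and times, with the median in red and dotted lines at the limits of the rule (1.5, 0.5 and -0.5). Medians are 0.10 and 0.23 at 8 h after the low and the high dose and 1.14 and 1.74 at 24 h, and the lines run close together apart from a few members.

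At 24 h after the low dose L had a median of 1.14, was above 0 in 52 of 54 members and reached 1 in 32, where 3.01% of the 15500 transcripts had an L of 1 or more. The high dose values, the other end of this comparison of doses, had chosen the members, so low and high dose were not tested against each other.

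In the fit of low dose against vehicle livers at 24 h, 35 of 52 members were called higher and 0 lower, where 4.89% of 16754 transcripts were called higher, with a median log2 fold change of 1.51. TMM-scaled values did not overlap in 40 of 52 members, against 14.7% of all transcripts. The vehicle livers at 24 h also entered the selection, so this comparison is not independent of the rule. Among the 493 early transcripts tested, 320 (64.9%) were called higher in the same fit, with a median log2 fold change of 1.32. The rise at 24 h after the low dose was thus not particular to the members. With MS-1 kept as a vehicle library 18 members were called, and without the vehicle library MS-20 there were 23. All 21 members called at 24 h against 8 h after the low dose were among the 35.

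The choice of vehicle livers weighed on the membership. The vehicle mean at 24 h was below the vehicle mean at 8 h in 48 of 54 members. In the fit of vehicle livers at 24 h against 8 h, 0 of 52 members were called, as were 0 of 16022 transcripts (0%) in all. The log2 fold change was above 0 in 5 of the 52, with a median of -0.39 against -0.01 over all transcripts, and at an unadjusted p under 0.05 there were 8 members lower and 1 higher at 24 h. The vehicle livers at 24 h had entered the selection, and a limit on the ratio to them favours members with a low vehicle level at 24 h. No share over all transcripts is given here for the 48 of 54 or for the counts at an unadjusted p. Set against the vehicle livers at 8 h, the high dose livers at 24 h gave the members a median L of 1.46 in place of 1.74, with 23 of 54 at 1.5 or more and 48 at 1 or more. Of the 21 members called after the low dose, 11 were among these 23.

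The members with the largest L were not the steadiest ones. ENSRNOT00000013423 had the largest L, 5.26 at 24 h after the high dose. Its CPM was 22.7, 69.1, 139, 162 and 231 in high dose livers and 0, 0.767, 1.52 and 1.90 in vehicle livers at 24 h. After the low dose it was 1.66, 11.6, 71.4, 79.7 and 98.8 at 24 h. The high dose livers were all far above vehicle, and the low dose livers spread from the vehicle level to the high dose level.

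At 8 h this transcript was uneven within each group. Its CPM was 1.01, 1.10, 1.43, 5.52 and 19.4 after vehicle, 0.794, 0.853, 0.9998, 4.25 and 45.5 after the low dose and 1.52, 3.09, 3.72, 8.23 and 19.1 after the high dose. All 3 groups overlapped, and one low dose liver (MS-94) reached the range of the high dose livers at 24 h. Its log2 fold change at 24 h against 8 h after the low dose was 2.14 ± 1.23 (SE, adjusted p = 0.22, edgeR) and did not pass the test. It was hardly present in the other organs, with at most 0.127 CPM in any heart library. In kidney it was highest at 5.49 CPM in MS-37 and 2.81 CPM in MS-54, the kidney libraries with raised liver-restricted transcripts.

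ENSRNOT00000023302, with the second largest L of 3.18, owed that value to one library. Its CPM in high dose livers at 24 h was 130 in MS-91, 0.0520 in one other library and 0 in 3 libraries. In vehicle livers at 24 h it was 3.42 in one library and 0 in 3 libraries, and in low dose livers at 24 h it was practically 0 in all 5. In vehicle heart at 24 h it had a mean of 35900 CPM, which made it the member most abundant in heart, and MS-91 was the liver library in which the summed heart-restricted transcripts were raised to 335 CPM. Without MS-91 its L was -1.58 and it was no member. It had too few counts to enter any fit of dose or time on liver libraries alone. It did enter the fit of the time course in liver against kidney given below. Its log2 difference there was -12.1 ± 4.98 (SE, adjusted p = 0.19, edgeR), and it was not called.

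**Figure D4:**
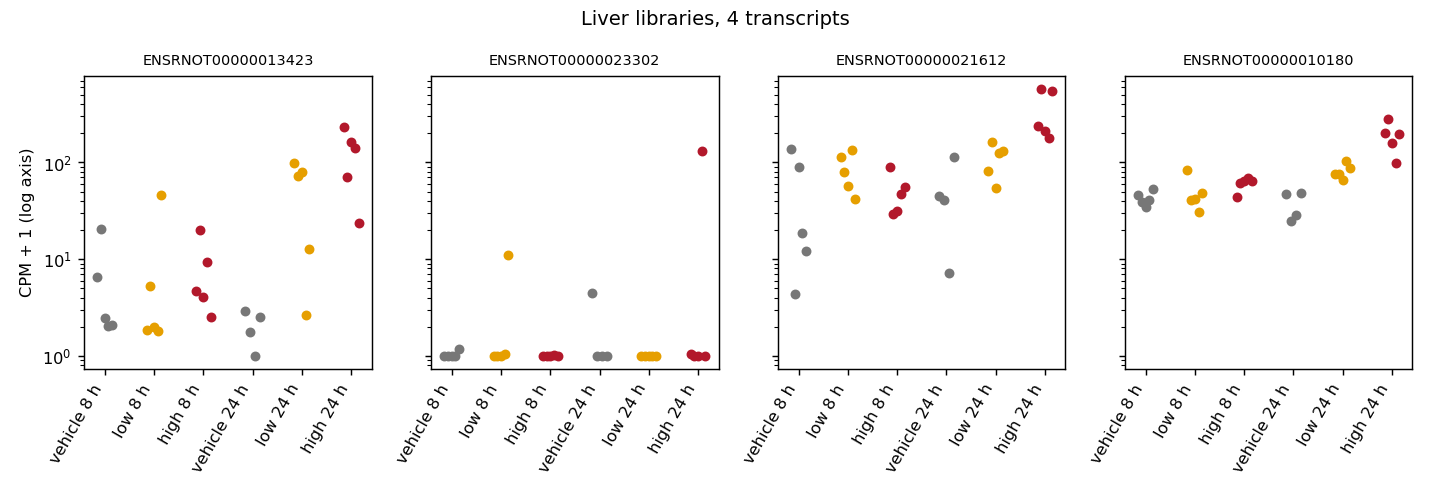
CPM + 1 (log axis) in each liver library of the 2 transcripts with the largest L (ENSRNOT00000013423 and ENSRNOT00000023302) and the 2 with the highest vehicle level (ENSRNOT00000021612 and ENSRNOT00000010180), by dose and time, without MS-1. The first rises to 22.7 to 231 CPM after the high dose at 24 h. The second is highest in MS-91 at 130 CPM, with 10.1 CPM in MS-94 (low dose, 8 h) and 3.42 CPM in MS-4 (vehicle, 24 h). The last 2 start from vehicle means of 50.7 and 36.4 CPM.

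The members most abundant in vehicle liver were ENSRNOT00000021612 and ENSRNOT00000010180, with means of 50.7 and 36.4 CPM at 24 h. ENSRNOT00000021612 had 178, 210, 240, 549 and 573 CPM in high dose livers at 24 h and 6.13, 40.1, 44.3 and 112 CPM in vehicle livers. Both groups were apart, although the vehicle values differed widely among themselves. At 8 h its range was 3.32 to 138 CPM after vehicle, 41.1 to 132 CPM after the low dose and 28.5 to 87.9 CPM after the high dose.

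After the low dose ENSRNOT00000021612 had 53.5, 80.6, 125, 129 and 163 CPM at 24 h, which overlapped with vehicle. Its log2 fold change at 24 h against 8 h after the low dose was 0.20 ± 0.35 (SE, adjusted p = 0.71, edgeR). Even in the contrast of the selection it was one of the 7 members not called. It was the other transcript, beside ENSRNOT00000013423, that was nearly restricted to the liver, with vehicle means of 0.340 CPM in kidney and 0.586 CPM in heart at 8 h.

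ENSRNOT00000010180 had 97.6, 156, 196, 200 and 282 CPM in high dose livers at 24 h, 64.6, 74.2, 75.6, 86.9 and 102.97 CPM in low dose livers and 24.0, 27.4, 46.6 and 47.6 CPM in vehicle livers. The vehicle group was below both dose groups, and the low dose group overlapped with the high dose group through MS-91. At 8 h after the low dose it was at 30.0, 40.3, 40.9, 46.9 and 82.1 CPM, the highest of which was MS-9. Its log2 fold change at 24 h against 8 h after the low dose was 0.58 ± 0.23 (SE, adjusted p = 0.087, edgeR) and did not pass, and without MS-9 it was 0.90 and was called.

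In 3 members the CPM of high dose and vehicle livers at 24 h overlapped. One was ENSRNOT00000023302, given above. ENSRNOT00000080840 was at 0.283, 6.86, 15.3 and 15.9 CPM in 4 high dose livers and practically 0 in the fifth, with 2.82 CPM in one vehicle liver and practically 0 in 3. ENSRNOT00000086238 ranged from 8.06 to 27.5 CPM in high dose livers and from 0 to 8.11 CPM in vehicle livers. At 8 h it reached 21.7 CPM in a vehicle liver.

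In the other organs most members were expressed at a higher level than in vehicle liver. The vehicle mean at 8 h was above that of liver in kidney for 46 of 54 members and in heart for 44, and in both organs for 39. Over the 15500 transcripts these shares were 81.2%, 62.4% and 59.2%, against 85.2%, 81.5% and 72.2% of the members, so that the kidney share was near the background. These are values of the same transcript in different organs on the CPM scale. The members' vehicle liver level at 8 h had a median of 2.62 CPM, against 8.04 CPM over the 15500 transcripts. The part of this low liver level in the shares was not tested.

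**Figure D5:**
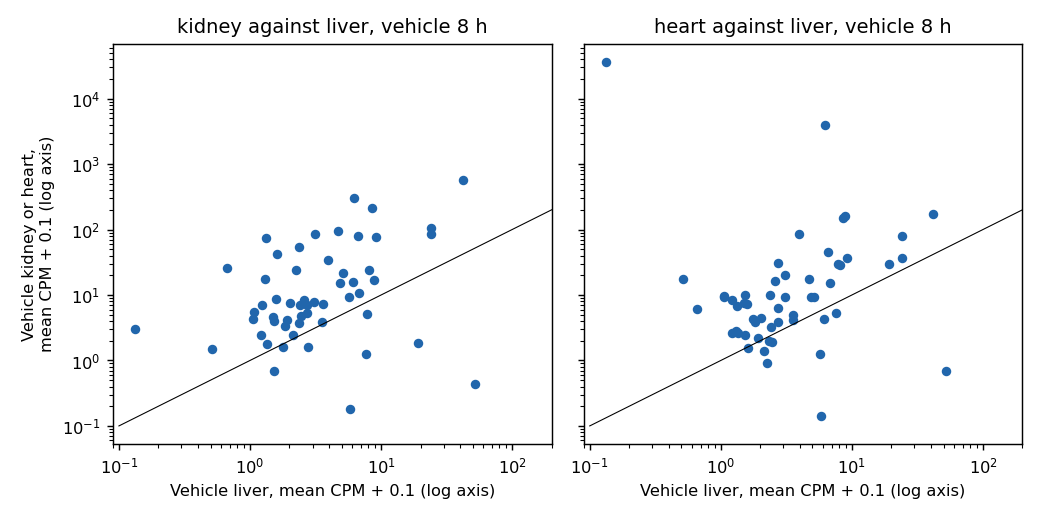
Mean CPM + 0.1 (log axes) of each of the 54 transcripts in vehicle kidney (left) and vehicle heart (right) against vehicle liver at 8 h, with the line of equal levels. In kidney 46 points and in heart 44 points lie above the line, and the highest heart point is ENSRNOT00000023302.

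In TMM-scaled fits the organs differed less. With no term for the rats that gave both organs, vehicle kidney was called higher than vehicle liver at 8 h for 16 of 52 members and lower for 6, where 22.3% of 18232 transcripts were called higher and 16% lower. Vehicle heart was called higher for 22 of 54 members and lower for 6, where 28.1% of 17823 transcripts were called higher and 25.2% lower. Of the early transcripts, kidney was called higher for 168 of 492 (34.1%) and heart for 188 of 490 (38.4%). Higher levels in these organs were thus not particular to the members. With the test on log2(TPM + 1) kidney was called higher for 25 members, and with log2(TPM + 0.1) for 29. The share of all transcripts called in these 2 tests was not computed, so both counts have no background.

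The member with the largest standing difference among those steady in liver was ENSRNOT00000014704, singled out after its values were seen. It had 3807 to 4210 CPM in vehicle heart at 8 h and 269 to 326 CPM in vehicle kidney, against 4.77, 5.51, 5.96, 6.73 and 7.51 CPM in vehicle liver. In high dose livers at 24 h it was at 20.01, 21.9, 30.2, 34.5 and 35.4 CPM, from 3.94, 4.28, 4.60 and 7.34 CPM after vehicle. Without MS-91, which held 34.5 CPM, its L was 1.49, just under the limit. The part of the heart-restricted transcripts raised in these livers was not tested. After the low dose it was 5.77, 5.87, 5.98, 6.76 and 8.34 CPM at 8 h and 11.1, 11.8, 13.3, 14.7 and 19.3 CPM at 24 h, a log2 fold change of 0.92 ± 0.17 (SE, adjusted p = 0.0039, edgeR). Without any 1 of MS-22, MS-23, MS-15 and MS-18 it was no longer called, at log2 fold changes of 0.78 to 0.92. In bulk tissue a larger number of cells that carry a transcript and more of it in each cell cannot be told apart.

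After thioacetamide few members were called in kidney and heart. The share of all transcripts called higher was also small there, so counts of 0 do not set the members apart from other transcripts. In kidney 0 of 49 members were called higher after the high dose at 8 h, where 1.09% of 18597 transcripts were called higher, and the members' median log2 fold change was -0.01. After the low dose at 24 h 0 of 48 were called higher, against 0.0377% of 18559 transcripts, with a median of 0.10. By DESeq2 and limma these counts were also 0. In each of these comparisons 4 members had an unadjusted p under 0.05 with a higher level. With a lower level there were 6 after the high dose at 8 h and 2 after the low dose at 24 h. The share of all transcripts at the unadjusted level was not computed.

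In kidney after the high dose at 24 h, where the selection had set an upper limit, 1 of 50 members was called, with 2.15% of 18967 transcripts called higher. This was ENSRNOT00000072458, with a kidney L of 0.91, just under the limit of 1. Its CPM in high dose kidneys was 16.1 to 31.8, against 7.54 to 12.4 in vehicle kidneys.

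In heart 0 of 53 members were called higher after the high dose at 24 h, where 0.677% of 17574 transcripts were called higher, and DESeq2 called 2 and limma 0. At 8 h 0 of 53 were called higher, against 0.0171% of 17519 transcripts, and DESeq2 and limma called 0. At an unadjusted p under 0.05, 12 members were higher and 6 lower at 24 h, with 4 higher and 5 lower at 8 h. The share of all transcripts at this unadjusted level was not computed, so these counts have no background. The medians of the log2 fold changes were 0.01 at both times.

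At 24 h after the high dose 2 of 53 members were called lower in heart, where 0.245% of all transcripts were called lower. ENSRNOT00000021348 fell from 13.7, 13.9, 17.1, 19.4 and 20.6 CPM after vehicle to 4.30, 5.13, 6.93, 8.30 and 9.70 CPM, a log2 fold change of -1.27 ± 0.22 (SE, adjusted p = 0.0062, edgeR). ENSRNOT00000006423 fell from 24.8 to 43.2 CPM after vehicle to 13.3 to 21.9 CPM, a log2 fold change of -0.88 ± 0.16 (SE, adjusted p = 0.0084, edgeR). In neither did the groups overlap. In liver both were among the members raised at 24 h, to 1.52 to 21.95 CPM and 7.39 to 15.4 CPM after the high dose.

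The difference between liver and kidney in the low dose time course was also fitted directly, as an interaction over the 20 low dose libraries of both organs, none of which took part in the selection. Livers and kidneys of the same rats entered this fit without a term for the rat, and the comparison was added after the data had been seen. Of 54 members 6 had a larger change from 8 h to 24 h in liver than in kidney and 0 a smaller one, where 0.399% of 20026 transcripts were called larger in liver, and the median difference was 0.65 on the log2 scale with 44 of 54 above 0. Leaving out 1 library at a time gave 3 to 9 members, the fewest without any 1 of the kidney libraries MS-32, MS-45, MS-48 and MS-52. DESeq2 called 14, for which the share of all transcripts was not computed. Without MS-37, the kidney library with the highest sum of liver-restricted transcripts, 4 were called. MS-105, the kidney library with the highest sum of heart-restricted transcripts, was also in this fit. The 6 included ENSRNOT00000012101, with a difference of 0.95 ± 0.11 (SE, adjusted p = 0.00026, edgeR), and ENSRNOT00000014704, with 1.01 ± 0.20 (SE, adjusted p = 0.0093, edgeR).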

How the data were processed

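Estimated counts and TPM per target were deposited for 90 libraries. Per the labels and the study's methods, the authors aligned stranded poly-A, paired-end reads with kallisto 0.42.2 (version from the submitters' processing notes) to the Ensembl transcriptome of Rnor_6.0. The tables also list genome intervals (4.08% to 28.9% of estimated counts), which were left out. Kallisto splits reads that match several transcripts by estimation, so values of similar transcripts are uncertain.

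Estimated counts were rounded and fitted with edgeR 4.0.16 (filterByExpr, TMM, glmQLFit, glmQLFTest), p-values being adjusted over all tested transcripts. Alternatives were DESeq2 1.42.0, RLE size factors, no filter, no fold limit, limma 3.58.1 on log2(TPM + 1) or log2(TPM + 0.1) where the average TPM was 0.1 or more, and each library left out. Scripts were tested on simulated data. Named were the 2 members with the largest L, the 2 with the highest vehicle CPM and, after seeing values, those said to be singled out or counted in groups of 5 or fewer. The members and lists were chosen with earlier results of these data known. Lists of gene symbols could not be applied to transcript identifiers and were not analysed here.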

Additional observations from a re-analysis of the deposited data

Results flagged for a closer look

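In 6 members the change from 8 h to 24 h after the low dose was larger in liver than in kidney, by edgeR's interaction term over 20 libraries, with no term for the rats that gave both organs. The log2 difference was 1.399 for ENSRNOT00000067638, 1.12 for ENSRNOT00000025983, 1.18 for ENSRNOT00000071560, 1.197 for ENSRNOT00000010796, 0.95 for ENSRNOT00000012101 and 1.01 for ENSRNOT00000014704. One kidney library in this comparison, MS-37, held 12611 CPM of liver-restricted transcripts, and its part in these values was not tested beyond leaving it out, after which 4 members were called. Another kidney library, MS-105, held 278 CPM of heart-restricted transcripts, and its part was not tested beyond leaving out 1 library at a time.

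A single library stood far from the others of its group, by the limits of Dixon's test, in 11 of 57 sets of values. Many of these sets were of transcripts picked for their level, their change or values already seen, so no rate by chance is set beside this count. The median CPM of the members was highest in MS-21 among vehicle livers at 24 h (2.20 CPM) and lowest in MS-7 among low dose livers at 24 h (6.77 CPM). ENSRNOT00000013423 reached 19.4 CPM in MS-13 (vehicle, 8 h) and 45.5 CPM in MS-94 (low dose, 8 h). ENSRNOT00000023302 reached 10.1 CPM in MS-94 (low dose, 8 h), 3.42 CPM in MS-4 (vehicle, 24 h) and 130 CPM in MS-91 (high dose, 24 h). ENSRNOT00000080840 reached 11.4 CPM in MS-18 (low dose, 8 h), 5.71 CPM in MS-11 (high dose, 8 h), 2.82 CPM in MS-19 (vehicle, 24 h) and 5.88 CPM in MS-23 (low dose, 24 h).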

How the results depend on the processing

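The number of members was 54. It was 40 with MS-1 kept (39 shared with the 54), 52 from TPM (30 shared), 91 with a pseudocount of 0.1 CPM (39 shared), 300 without centring, the most the rule allows (42 shared), and 25 against the vehicle livers at 8 h, an alternative added after seeing the data (21 shared). Leaving out 1 library gave 44 to 67.

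The count of members called higher at 24 h than at 8 h after the low dose was 21 to 24 under the other settings and 14 to 22 with 1 library left out. It was 14 without the low dose library MS-22 at 24 h. After the low dose at 24 h it was 35, and 18 with MS-1 kept, 23 to 30 with 1 library left out. At 24 h it was 23 without the vehicle library MS-20. After the low dose at 8 h it was 1, and 2 by DESeq2 or without a fold limit, and 0 from log2(TPM + 0.1) or without MS-9, with 0 to 1 when 1 library was left out. In heart at 24 h after the high dose DESeq2 called 2 and leaving out 1 library gave 0 to 1. In kidney, and in heart at 8 h, leaving out 1 library gave 0. Vehicle kidney was higher than liver for 25 and 29 members from log2(TPM + 1) and log2(TPM + 0.1), and for 16 to 19 with 1 library left out. Vehicle heart was higher for 21 to 23. The interaction called 14 members by DESeq2 and 3 to 9 with 1 library left out. For the other settings the share of all transcripts called was not computed, so these counts cannot be set against a background. The cause of these differences was not tested. No paired analysis was possible because groups of one organ came from different rats and the labels, whose library numbers no groups share, do not tie the organs of a rat to each other. At vehicle levels near 1 CPM, depth limits what a single library can show.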
